A study of Rattus norvegicus with 10 samples.

Results

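Activins and TGF-betas are secreted dimers of the TGF-beta superfamily. An activin dimer is built from the beta subunits encoded by Inhba and Inhbb, and the secreted protein follistatin, encoded by Fst, binds activins and keeps them from their receptors. Ligand binding brings type II receptors such as Acvr2a together with type I receptors such as Acvr1 and Acvr1c, which phosphorylate SMAD proteins that then act in the nucleus, and Smad7 encodes an inhibitory SMAD that blocks this step. In the rodent brain, Inhba is known as a gene whose mRNA rises in neurons with synaptic activity and after injury, and the activin A it encodes is known for protecting neurons. The genes described here are these ligands and regulators, Inhba, Inhbb, Fst, Acvr1, Acvr1c, Acvr2a, Tgfb1, Tgfb2, Tgfb3 and Smad7. Each was taken by its symbol among the probe sets annotated to a single gene, and all 10 had exactly 1 such probe set, so that 10 of the 18511 single-symbol probe sets were chosen. None of the 10 genes was also listed on a probe set shared by several genes.

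The samples were left cortex of male adult Sprague-Dawley rats, with 1 Affymetrix Rat Gene 2.0 ST array per animal, taken 3 hours after surgery. Sham animals (control, n = 4) had the surgery without a filament in the internal carotid artery. In MCAO animals (n = 3) a filament permanently occluded the left middle cerebral artery after a bolus of vehicle, 1% BSA in PBS, into the internal carotid artery. MCAO+NRG1 animals (n = 3) had the same occlusion, with the EGF-like domain of NRG1-beta, a neuregulin growth factor and ErbB receptor ligand, in the bolus immediately before it. No injection is described for the sham animals, so in MCAO against sham the occlusion and the injection cannot be told apart. Values are log2 intensities after RMA, a background correction, normalization and summary of the probes of a gene. A probe set's values can be compared between arrays, but levels of different genes cannot be ranked from them.

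All 10 genes lay above 4.64 log2, the level below which 95% of 1358 olfactory and vomeronasal receptor probe sets fell and which stands here for background. All 13 measured neuron markers lay above it too, and so did all 11 measured markers of striatal neurons, which the cortical label does not name. The measured endothelial, mural and oligodendrocyte markers also all lay above it, as did 12636 of the 18511 single-symbol probe sets. The median of the array was 6.05 to 6.11 in sham, 5.79 to 5.81 in MCAO+NRG1, and 5.80, 5.82 and 6.12 in MCAO replicates 1 to 3. MCAO replicate 3 thus stood apart from the other occluded arrays. Some of its marker medians also differed from theirs. Oligodendrocyte markers were at 0.32 log2 above the sham mean, against −0.32 and −0.21 in the other MCAO arrays. Striatal markers were at 0.62 against 0.41 and 0.04, and microglia markers at 0.17 against −0.59 and −0.33. Endothelial markers, at −0.69, and meningeal markers, at −0.59, lay between the other MCAO arrays. These medians were not centred, so they include the higher level of the whole array, and tissue make-up cannot be read from them alone. MCAO minus sham is given with and without this array for Inhba and for the genes in which it was the highest of the 10 arrays. Over all probe sets the median difference was −0.16 log2 for MCAO minus sham, −0.08 for MCAO+NRG1 minus MCAO and −0.24 for MCAO+NRG1 minus sham. Setting every array to the same median added 0.16, 0.11 and 0.27 log2 to these differences, and changed the calls over all probe sets from 203 higher and 1038 lower to 407 and 197 for MCAO minus sham, and from 279 and 2920 to 707 and 288 for MCAO+NRG1 minus sham.

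The start regions of the paired activin subunit genes are shown because one of these genes was called in occluded cortex and the other was not. They are RefSeq windows on build GRCr8, from 250 bases before to 50 after the annotated start, printed 5′ to 3′ on the strand of the gene. The capitals mark CAGACA, a SMAD-binding element with a flanking base, in Inhba (chr17:53804459-53804758, minus strand), and GGCGCC, an element known from SMAD1/5 binding, in Inhbb (chr13:33089324-33089623, minus strand).
Inhba: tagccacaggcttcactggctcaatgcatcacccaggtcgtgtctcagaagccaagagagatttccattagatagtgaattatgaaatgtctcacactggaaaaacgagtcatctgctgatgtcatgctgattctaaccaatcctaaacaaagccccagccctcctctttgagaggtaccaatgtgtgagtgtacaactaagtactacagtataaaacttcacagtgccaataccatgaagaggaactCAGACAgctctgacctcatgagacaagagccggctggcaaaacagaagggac
Inhbb: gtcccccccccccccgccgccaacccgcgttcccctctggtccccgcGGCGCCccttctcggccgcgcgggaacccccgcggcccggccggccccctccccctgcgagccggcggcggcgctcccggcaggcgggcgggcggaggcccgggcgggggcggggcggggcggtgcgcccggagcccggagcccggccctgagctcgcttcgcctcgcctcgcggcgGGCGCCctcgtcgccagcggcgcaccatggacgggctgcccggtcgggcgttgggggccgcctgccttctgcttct
The 2 windows differ in base composition, with 45.7% G and C for Inhba and 84.3% for Inhbb, where the median of all 33469 windows is 51.7% with the 5th percentile at 35.3% and the 95th at 72.7%.

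Windows were found for 8 of the 10 genes, all but Fst and Acvr1. Both strands were searched for 4 motifs. TGACGTCA, the full cyclic AMP response element, occurs in 1.83% of all windows, and TGANTCA, the AP-1 element, in 7.33%. Neither is in any of the 8. CAGACA, in 21.1% of all windows, is in that of Inhba alone, at −2 from the annotated start (the first transcribed base is 1 and the base before it −1). GGCGCC, in 11% of all windows, is in 3 of the 8. It lies at −203 and −26 in Inhbb, at −96 and −36 in Smad7 and at 1 in Acvr2a. These matches describe the letters in the windows and no binding was measured.

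**Figure D1:**
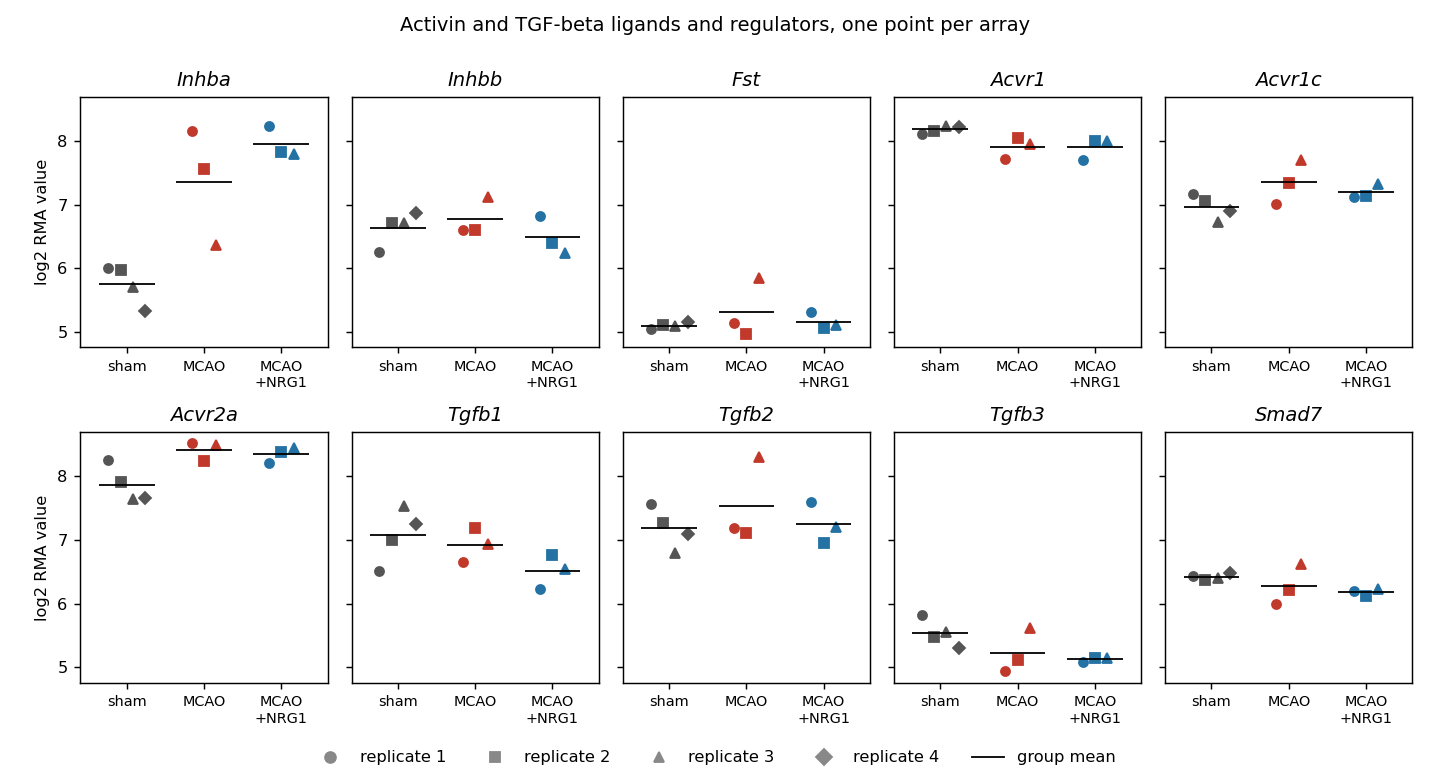
The log2 RMA value (vertical axis) of each of the 10 genes is plotted for every sham, MCAO and MCAO+NRG1 array, with symbols for the replicate numbers and a line at the group mean. Inhba lay between 5.33 and 6.0 in sham and between 7.79 and 8.23 in MCAO+NRG1, with MCAO replicate 3 at 6.36 between these ranges, while Fst, Tgfb2 and Smad7 were highest in MCAO replicate 3.

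Inhba was the 1 gene of the 10 that passed the test against sham, and it was higher in both occluded groups. In MCAO minus sham 1 of the 10 was called higher and 0 lower at a limma adjusted p under 0.05, where 1.1% of all tested probe sets were called higher and 5.61% lower. In MCAO+NRG1 minus sham 1 was called higher and 0 lower, against 1.51% and 15.8%. An unadjusted p under 0.05 was reached by 3 and 4 of the 10 in these comparisons, near the 29% and 36% of all probe sets. These backgrounds moved with single arrays. For MCAO minus sham the 1241 probe sets called in all became 102 when sham replicate 4 was left out and 3583 when MCAO replicate 3 was, the lowest and highest of 10 such fits. For MCAO+NRG1 minus sham the 3199 became 889 without MCAO+NRG1 replicate 3 and 4936 when MCAO replicate 3 was left out. In MCAO+NRG1 minus MCAO limma called none, against 0.0054% of all probe sets. None of the 10 had an unadjusted p under 0.05 there, as 594 probe sets did. The moderated F test over the 3 groups passed Inhba alone (adjusted p = 0.00219) and 11.5% of all probe sets. The 2 comparisons with sham share the sham arrays, and their values are given side by side for that reason.

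In the arrays themselves, MCAO and sham did not overlap for 1 gene in the higher direction, Inhba, and 1 in the lower, Acvr1, against 2.74% and 17.8% of all probe sets. For MCAO+NRG1 and sham it was 1 higher, Inhba, and 3 lower, Acvr1, Tgfb3 and Smad7, against 2.17% and 34.2%. For the occluded groups it was none in either direction, against 1.47% higher and 4.27% lower. The median difference over the 10 genes was 0.18 log2 for MCAO minus sham, −0.13 for MCAO+NRG1 minus MCAO and −0.05 for MCAO+NRG1 minus sham. In MCAO+NRG1 minus MCAO 9 of the 10 differences were below 0, and 5 of the 10 after median centring.

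Inhba, whose product forms activin A, read 6.0, 5.98, 5.70 and 5.33 log2 in sham, 8.15, 7.56 and 6.36 in the MCAO arrays, and 8.23, 7.83 and 7.79 in MCAO+NRG1. Every occluded array lay above every sham array, and the lowest occluded array was MCAO replicate 3. The means were 5.75 ± 0.31 (SD, n = 4), 7.36 ± 0.91 (n = 3) and 7.95 ± 0.24 (n = 3). In cortex as a whole, a change in the share of cells that carry an RNA and a change in RNA per cell cannot be told apart.

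MCAO minus sham was 1.60 ± 0.31 log2 (SE) for Inhba, a 3.04-fold rise with a 95% interval of 1.94 to 4.76 (limma adjusted p = 0.0139). The call was lost when sham replicate 4, MCAO replicate 1 or MCAO replicate 2 was left out, with differences of 1.46, 1.21 and 1.5 and limma adjusted p of 0.0533, 0.063 and 0.0556, and when all 36685 probe sets were tested (0.0558). Without MCAO replicate 3 the difference was 2.10 log2 (limma adjusted p = 0.00192). MCAO+NRG1 minus sham was 2.20 ± 0.31 log2, a 4.58-fold rise with an interval of 2.92 to 7.19 (limma adjusted p = 0.00116), and this call held under each of the 20 alternative settings, with adjusted p up to 0.0149.

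Between the occluded groups Inhba did not pass the test. MCAO+NRG1 minus MCAO was 0.59 ± 0.33 log2, with a 95% interval of −0.10 to 1.29 (limma adjusted p = 0.999). The arrays overlapped, with 8.15 in MCAO replicate 1 above 2 of the MCAO+NRG1 arrays. Most of that difference came with 1 array, since it was 0.10 log2 without MCAO replicate 3. The spread within MCAO was the wider one, 0.91 log2 (SD) against 0.24 in MCAO+NRG1.

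Inhbb, which encodes the subunit of activin B, did not pass in any comparison. It read 6.25, 6.71, 6.71 and 6.87 log2 in sham, 6.61, 6.59 and 7.13 in the MCAO arrays, and 6.82, 6.40 and 6.24 in MCAO+NRG1, and the ranges overlapped. The differences were 0.14 ± 0.20 log2 for MCAO minus sham and −0.15 ± 0.20 for MCAO+NRG1 minus sham, with limma adjusted p of 0.665 and 0.602. The first became −0.04 without MCAO replicate 3, and the second 0.11 after median centring. Taken within each array, which removes any shift shared by its probe sets, the log2 difference between Inhba and Inhbb was 1.46 larger in MCAO than in sham (two-sided exact permutation p = 0.143) and 2.35 larger in MCAO+NRG1 than in sham (exact permutation p = 0.0286, the smallest that 3 against 4 arrays allow, and 0.0858 after Benjamini-Hochberg adjustment over 9 such comparisons). Between the occluded groups it was 0.88 larger in MCAO+NRG1 (exact permutation p = 0.3, where 0.1 is the smallest possible). Without MCAO replicate 3 the difference from sham in MCAO was 2.14 and that between the occluded groups 0.21. The within-array comparisons with Inhbb, Fst and Acvr2a all reuse the Inhba values, so they are not separate support for its calls.

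Fst, the activin antagonist, lay not far above the background level of 4.64, with a mean of 5.18 log2 over the 10 arrays. It stayed in a narrow range in all but 1 array. It read 5.04, 5.11, 5.10 and 5.16 log2 in sham, 5.13, 4.96 and 5.85 in the MCAO arrays, and 5.31, 5.05 and 5.11 in MCAO+NRG1. MCAO replicate 3 was the high array. MCAO minus sham was 0.22 ± 0.19 log2 (limma adjusted p = 0.462), and −0.05 without that array. MCAO+NRG1 minus sham was 0.06 ± 0.19 log2, with a 95% interval of −0.34 to 0.46. After median centring the differences were 0.38 and 0.33, and after quantile normalization 0.46 and 0.41 (limma adjusted p = 0.0865 and 0.101), so that the size for Fst depends on the scaling. In the MCAO+NRG1 arrays the log2 difference between Inhba and Fst within an array was 2.14 larger than in sham (two-sided exact permutation p = 0.0286, adjusted 0.0858). In MCAO it was 1.39 larger than in sham (exact permutation p = 0.143) and 2.15 without MCAO replicate 3. Between the occluded groups it was 0.75 larger in MCAO+NRG1 (exact permutation p = 0.6) and −0.01 without that array.

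Acvr2a, a type II receptor for activins, had the second largest difference from sham of the 10 genes in MCAO, but did not pass the test on the deposited values. It read 8.26, 7.91, 7.64 and 7.66 log2 in sham, 8.52, 8.24 and 8.50 in the MCAO arrays, and 8.21, 8.38 and 8.45 in MCAO+NRG1. Sham replicate 1 lay among the occluded arrays and the other sham arrays lay below all of them. MCAO minus sham was 0.55 ± 0.17 log2, a ratio of 1.46 with a 95% interval of 1.13 to 1.89 (limma adjusted p = 0.0614). MCAO+NRG1 minus sham was 0.48 ± 0.17 log2 (limma adjusted p = 0.0663). After median centring the differences were 0.71 and 0.74 log2 and both passed (limma adjusted p = 0.0385 and 0.0255). Both also passed after quantile normalization (0.0429 and 0.0325), with array weights (0.0117 and 0.00937) and without sham replicate 1 (0.0145 and 0.0158). Neither passed with all probe sets tested (limma adjusted p = 0.116 and 0.113) or with the replicate block (0.173 and 0.183). Neither passed when any other single array was left out, with limma adjusted p up to 0.187 and 0.191. MCAO+NRG1 minus MCAO was −0.07 ± 0.19 log2, with an interval of −0.47 to 0.32. Within an array the log2 difference between Inhba and Acvr2a was 1.05 larger in MCAO than in sham and 1.72 larger in MCAO+NRG1 than in sham (exact permutation p = 0.0857 and 0.0286, adjusted 0.193 and 0.0858).

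The type I receptors had smaller differences. Acvr1, a type I receptor best known for BMP signals, read 8.10, 8.16, 8.24 and 8.23 log2 in sham, 7.72, 8.05 and 7.96 in the MCAO arrays, and 7.70, 7.99 and 8.0 in MCAO+NRG1. All 6 occluded arrays lay below all 4 sham arrays, by little. The differences from sham were −0.27 ± 0.15 and −0.28 ± 0.15 log2 (limma adjusted p = 0.241 and 0.186), and after median centring −0.11 and −0.02. Acvr1c, the type I receptor for nodal and activin B, read 7.17, 7.05, 6.72 and 6.90 in sham, 7.01, 7.34 and 7.70 in the MCAO arrays, and 7.11, 7.14 and 7.33 in MCAO+NRG1. Its groups overlapped and MCAO replicate 3 was again the highest array. MCAO minus sham was 0.39 ± 0.18 log2 (unadjusted p = 0.0448, adjusted p = 0.163 in limma) and 0.21 without that array.

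The TGF-beta ligands did not pass the test, and their values did not run the same way. Tgfb1, a ligand made by microglia and vascular cells among others, read 6.52, 7.0, 7.53 and 7.25 log2 in sham, 6.66, 7.18 and 6.94 in the MCAO arrays, and 6.23, 6.77 and 6.55 in MCAO+NRG1. These ranges overlapped, and sham had the widest spread, with an SD of 0.43 log2. MCAO+NRG1 minus sham was −0.56 ± 0.22 log2, a ratio of 0.678 with a 95% interval of 0.490 to 0.939 (limma adjusted p = 0.0842), and it was −0.75 without sham replicate 1 (limma adjusted p = 0.016) and −0.29 after median centring (0.448). MCAO+NRG1 minus MCAO was −0.41 ± 0.24 log2 (interval −0.91 to 0.09), next in size to Inhba among the 10 genes. The microglia markers, of whose 11 measured members limma called none (3 and 4 had an unadjusted p under 0.05), had a median of −0.26 log2 in MCAO minus sham and −0.42 in MCAO+NRG1 minus sham. Without MCAO replicate 3, 5 of the 11 were called lower in MCAO and 3 in MCAO+NRG1. In those fits 3583 and 4936 of the 18511 probe sets were called in either direction. The part of the microglia markers in the Tgfb1 values was not tested.

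Tgfb2 read 7.57, 7.26, 6.80 and 7.10 log2 in sham, 7.18, 7.11 and 8.30 in the MCAO arrays, and 7.60, 6.96 and 7.20 in MCAO+NRG1. MCAO replicate 3 was the highest of the 10 arrays, and the other MCAO arrays lay within the range of sham. MCAO minus sham was 0.35 ± 0.26 log2 (limma adjusted p = 0.39), and −0.04 without that array. Tgfb3 read 5.83, 5.48, 5.55 and 5.30 in sham, 4.94, 5.11 and 5.62 in the MCAO arrays, and 5.09, 5.15 and 5.15 in MCAO+NRG1. All MCAO+NRG1 arrays lay below all sham arrays, and so did MCAO replicates 1 and 2 but not replicate 3. MCAO minus sham was −0.32 ± 0.18 log2 (limma adjusted p = 0.255) and −0.51 without replicate 3 (0.0428). MCAO+NRG1 minus sham was −0.41 ± 0.18 log2 (0.118; without MCAO replicate 3, 0.0492). After median centring these were −0.16 and −0.14.

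Smad7, which TGF-beta signals are known to induce as a feedback inhibitor, read 6.43, 6.38, 6.40 and 6.49 log2 in sham, 5.99, 6.21 and 6.62 in the MCAO arrays, and 6.20, 6.12 and 6.22 in MCAO+NRG1. The MCAO+NRG1 arrays lay below all sham arrays and MCAO replicate 3 above them. The differences were −0.15 ± 0.16 log2 for MCAO minus sham and −0.24 ± 0.16 for MCAO+NRG1 minus sham (limma adjusted p = 0.558 and 0.289). The first was −0.32 without MCAO replicate 3 (limma adjusted p = 0.102). After median centring they were 0.01 and 0.02.

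**Figure D2:**
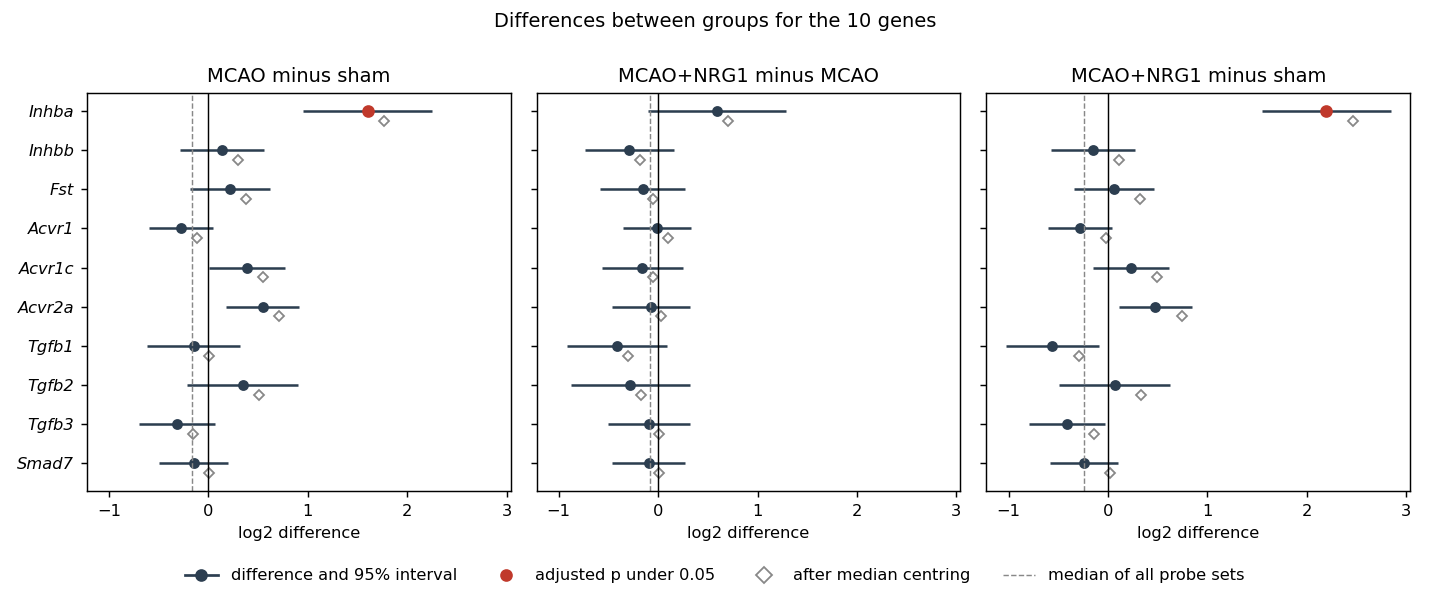
Horizontal axes give the log2 difference for MCAO minus sham, MCAO+NRG1 minus MCAO and MCAO+NRG1 minus sham. Filled points are the limma differences with 95% intervals, red where the adjusted p was under 0.05, open diamonds are the differences after median centring, and the dashed line is the median of all probe sets. Inhba, at 1.60 and 2.20, is the red point in both comparisons with sham, and in MCAO+NRG1 minus MCAO the other 9 genes lie between −0.41 and −0.01 with intervals that include 0.

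MCAO replicate 3 was the highest of the 10 arrays for 5 of the 10 genes, Inhbb, Fst, Acvr1c, Tgfb2 and Smad7. It was the highest for 24.5% of all probe sets. Without it the MCAO+NRG1 minus MCAO differences of the 10 genes lay between −0.41 and 0.11 log2, and none was called. The part of the tissue make-up of that array in these values was not tested.

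The genes whose pattern was most like that of Inhba over the 10 arrays, among the 12626 other probe sets above background, were Tacr3, the neurokinin B receptor, Bdnf, the neurotrophin gene that synaptic activity is known to induce in neurons, and Adcyap1, the gene of the neuropeptide PACAP. Their Pearson correlations with Inhba were 0.96, 0.95 and 0.94. These are descriptions, and the points share 3 groups and the array that stood apart. The 3 genes were picked on these same values, so the pattern that they share with Inhba follows from that choice. Their limma p values below are likewise those of picked genes. Bdnf read 5.53, 6.01, 5.96 and 5.91 log2 in sham, 7.20, 7.20 and 6.26 in the MCAO arrays, and 7.59, 7.50 and 7.40 in MCAO+NRG1, with no overlap between occluded and sham arrays and MCAO replicate 3 the lowest of the occluded arrays, as for Inhba. Bdnf differed from sham by 1.03 ± 0.21 log2 in MCAO and 1.64 ± 0.21 in MCAO+NRG1 (limma adjusted p = 0.0186 and 0.00065), of which the call in MCAO was lost without sham replicate 2 or 4 or MCAO replicate 1 or 2. Adcyap1 differed by 0.56 ± 0.21 and 1.04 ± 0.21 log2, of which the second passed (limma adjusted p = 0.102 and 0.00863). Tacr3 moved over a small range, by 0.21 ± 0.14 and 0.30 ± 0.14 log2 (limma adjusted p = 0.346 and 0.144). The neuron markers had medians of 0.07 and 0.04 log2 in the same comparisons, and limma called none of the 13 measured (1 and 2 had an unadjusted p under 0.05).

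**Figure D3:**
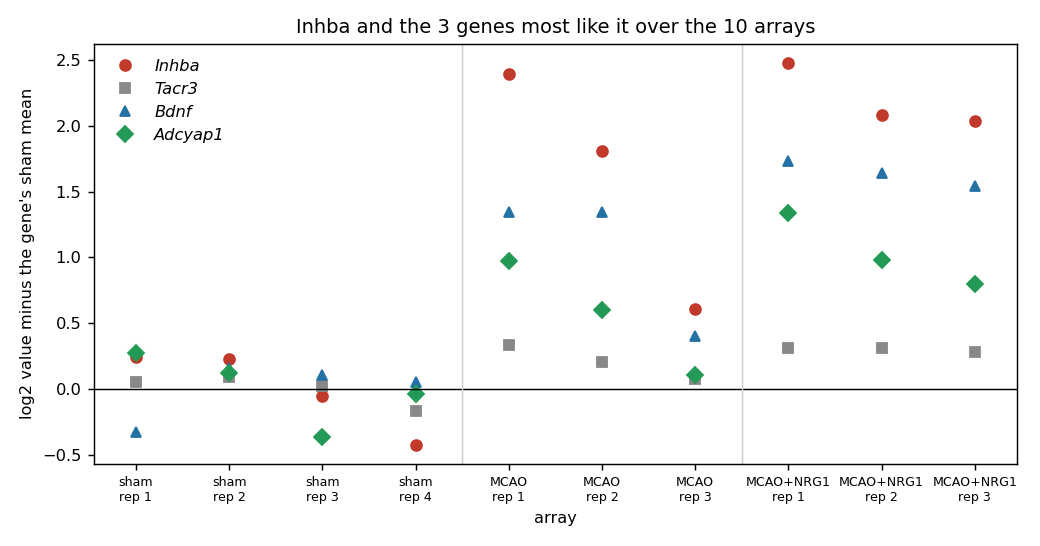
For each of the 10 arrays (horizontal axis) the log2 value minus the sham mean of the gene is plotted for Inhba, Tacr3, Bdnf and Adcyap1. In MCAO replicate 3 all 4 genes lie nearer to the sham mean than in the other occluded arrays. Tacr3, Bdnf and Adcyap1 were picked for their correlation with Inhba over these arrays.

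Beyond these genes, 99 of 112 listed ligands, receptors, SMADs, regulators and target genes of the superfamily were measured. In MCAO minus sham 2 were called higher and 7 lower, where 1.1% and 5.61% of all probe sets were. In MCAO+NRG1 minus sham it was 2 and 23, against 1.51% and 15.8%. In MCAO+NRG1 minus MCAO none was called, against 0.0054%, and 5 had an unadjusted limma p under 0.05, against 3.21%. The median differences were −0.17, −0.31 and −0.13 log2 (the last for the occluded groups), near those of all probe sets. After median centring the calls were 2 higher and 1 lower for MCAO minus sham and 4 and 4 for MCAO+NRG1 minus sham. Of the calls on the deposited values, those of Bmp3, Gadd45b and Ltbp3 passed after centring for MCAO minus sham, and those of Bmp3, Gadd45b, Bmp7, Acvrl1, Ltbp4 and Id1 for MCAO+NRG1 minus sham.

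The calls for MCAO minus sham rested on single arrays. The 9 fell to 0 without sham replicate 2, sham replicate 4 or MCAO replicate 1, to 1 without sham replicate 3 or MCAO replicate 2, and to 0 when all 36685 probe sets were tested. They rose to 16 without sham replicate 1 and to 22 without MCAO replicate 3. So no pathway gene named below was called in MCAO in every one of these fits. For MCAO+NRG1 minus sham the 25 became 10 to 15 without sham replicate 2, 3 or 4 or without any 1 MCAO+NRG1 array, and 36 without MCAO replicate 3. The 8 genes called there with each of the 10 arrays left out in turn were Bmp3, Bmp7, Acvrl1, Ltbp3, Ltbp4, Bgn, Id1 and Gadd45b.

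Of the other ligands 21 of 23 were measured. Bmp3, which encodes a BMP known to counter other BMPs in bone, was called higher in both occluded groups. It read 6.20, 6.15, 5.77 and 6.20 log2 in sham, 6.61, 6.72 and 6.76 in the MCAO arrays, and 6.84, 6.73 and 6.93 in MCAO+NRG1, with no overlap with sham. The differences were 0.62 ± 0.16 and 0.76 ± 0.16 log2 (limma adjusted p = 0.0325 and 0.00849), and both passed after median centring, but the call in MCAO held in 5 of the 10 fits without 1 array. Gdf6, a BMP-type ligand, was called lower in both groups, at −0.92 ± 0.26 and −0.90 ± 0.26 log2, though its arrays overlapped with sham and its occluded means, 4.19 and 4.21, lay below the background level, and neither call passed after centring (0.118 and 0.164). Bmp7, a BMP that meningeal and choroid plexus cells are known to make, was called lower in MCAO+NRG1 at −1.03 ± 0.19 log2 (limma adjusted p = 0.00486) and read −0.47 ± 0.19 in MCAO (0.113). The other ligands called lower in MCAO+NRG1 against sham were Bmp6, Inhbe, Gdf7 and Gdf9, at −0.58 to −0.81 log2, with Inhbe below the background level in every group.

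Among the receptors and extracellular regulators, all calls were lower. Most calls over all probe sets were lower too, 1038 of 1241 in MCAO and 2920 of 3199 in MCAO+NRG1. After median centring 0 receptors and 1 regulator were called lower in MCAO, and 1 and 1 in MCAO+NRG1. Acvrl1, a type I receptor of endothelial cells, read 6.63, 6.57, 6.63 and 6.83 log2 in sham, 5.37, 6.17 and 6.21 in the MCAO arrays, and 5.61, 5.31 and 5.70 in MCAO+NRG1. It fell by 0.75 ± 0.20 and 1.12 ± 0.20 log2 (limma adjusted p = 0.0389 and 0.00421; 0.0813 and 0.0212 after centring), and was the 1 of 11 measured receptors that was called. Of 23 measured extracellular regulators, Ltbp3 and Ltbp4, which encode binding proteins of latent TGF-beta, were called lower in both groups. Ltbp3 fell by 0.92 ± 0.19 and 0.93 ± 0.19 log2 (limma adjusted p = 0.0186 and 0.0083), and Ltbp4 by 0.60 ± 0.16 and 0.81 ± 0.16 (0.0399 and 0.00742). After centring the adjusted p was 0.0433 and 0.0518 for Ltbp3 and 0.0908 and 0.0436 for Ltbp4. A further 6 were called lower in MCAO+NRG1 and not in MCAO, Bgn, Furin, Sostdc1, Nbl1, Fstl4 and Chrdl2. None of these 6 passed between the occluded groups, so the calls do not show that the groups differed, and none passed after median centring. Sostdc1 differed by −0.92 ± 0.29 log2 in MCAO (limma adjusted p = 0.0597) and −0.89 ± 0.29 in MCAO+NRG1 (0.0448). The arrays of Sostdc1 overlapped with sham in both groups. Furin encodes a protease that cleaves the precursors of these ligands, and its differences were −0.52 ± 0.16 log2 in MCAO (limma adjusted p = 0.0606) and −0.60 ± 0.16 in MCAO+NRG1 (0.0239).

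Inside the cell, limma called none of the 7 measured SMADs in MCAO, where 0 had an unadjusted p under 0.05, and in MCAO+NRG1 Smad6, the inhibitory SMAD of BMP signals, was called lower at −0.85 ± 0.23 log2 (limma adjusted p = 0.0239). Of 20 measured regulators, Tgif1 and Tgif2, which encode repressors that bind activated SMADs, were called lower in both groups. Tgif1 differed by −0.74 ± 0.17 and −0.56 ± 0.17 log2 (limma adjusted p = 0.0245 and 0.0364), and Tgif2 by −0.75 ± 0.22 and −0.85 ± 0.22 (0.0493 and 0.0187). None of these 4 calls passed after median centring (limma adjusted p = 0.0533 and 0.241 for Tgif1, 0.102 and 0.0928 for Tgif2). Tab1 and Ski were called lower in MCAO+NRG1 and not in MCAO, at −0.65 ± 0.15 and −0.53 ± 0.17 log2. Whether any of these differs between the occluded groups was tested directly, and none passed.

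Of 17 measured target genes, Gadd45b and Id1 were called in both groups, in opposite directions. Gadd45b, a stress gene that TGF-beta is one of several signals to induce, read 7.01, 7.02, 7.38 and 7.25 log2 in sham, 8.04, 8.93 and 7.70 in the MCAO arrays, and 8.51, 8.58 and 8.06 in MCAO+NRG1. It rose by 1.06 ± 0.24 and 1.22 ± 0.24 log2 (limma adjusted p = 0.0234 and 0.00718). Id1, a gene that BMP signals induce, read 6.73, 7.40, 7.32 and 7.28 in sham, 6.33, 6.14 and 6.43 in the MCAO arrays, and 6.12, 5.56 and 6.07 in MCAO+NRG1. It fell by 0.89 ± 0.19 and 1.27 ± 0.19 log2 (limma adjusted p = 0.0206 and 0.00196; 0.0553 and 0.0152 after centring). For both genes the occluded arrays did not overlap with sham. Tgfbi and Tgfb1i1 were called lower in MCAO+NRG1, at −0.70 ± 0.18 and −0.85 ± 0.22 log2.

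Markers of vessels and their coverings were lower in both occluded groups than in sham. Within MCAO the order of the arrays differed between genes. Acvrl1, Ltbp3 and Ltbp4 were lowest in replicate 1, where the endothelial, mural and meningeal lists summed highest. Bmp7 and Id1 were lowest in replicate 2, where these lists summed lowest. Within MCAO+NRG1, Ltbp3 and Ltbp4 were lowest in replicate 1, where the endothelial and mural lists summed lowest. Acvrl1, Bmp7 and Id1 were lowest in MCAO+NRG1 replicate 2, where the meningeal list summed lowest. The summed level of the 10 measured endothelial markers was 10.35 to 10.62 log2 in sham, 9.64 to 10.31 in MCAO and 9.13 to 10.05 in MCAO+NRG1, with 3 and 7 of the 10 called lower, against 5.61% and 15.8% of all probe sets (1 and 2 after median centring). The 9 mural markers summed to 10.09 to 10.48, 9.60 to 9.998 and 9.47 to 9.85, with 2 and 5 called lower (0 and 1 after centring). The 14 meningeal and fibroblast markers summed to 11.12 to 11.43, 10.56 to 10.90 and 10.15 to 10.71, with 7 and 10 called lower (2 and 6 after centring). With single arrays left out these lists had 1 to 4, 0 to 4 and 0 to 7 called lower in MCAO, and 4 to 8, 2 to 6 and 6 to 10 in MCAO+NRG1. The 9 choroid plexus markers, of which 4 lay above background, spread from 8.03 to 11.54 within sham and summed to 7.44 to 7.72 and 7.44 to 7.67 in the occluded groups. Dcn is in both the regulator list and the meningeal list. Their part in the falls of Acvrl1, Ltbp3, Ltbp4, Bmp7 and Id1 was not tested.

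**Figure D4:**
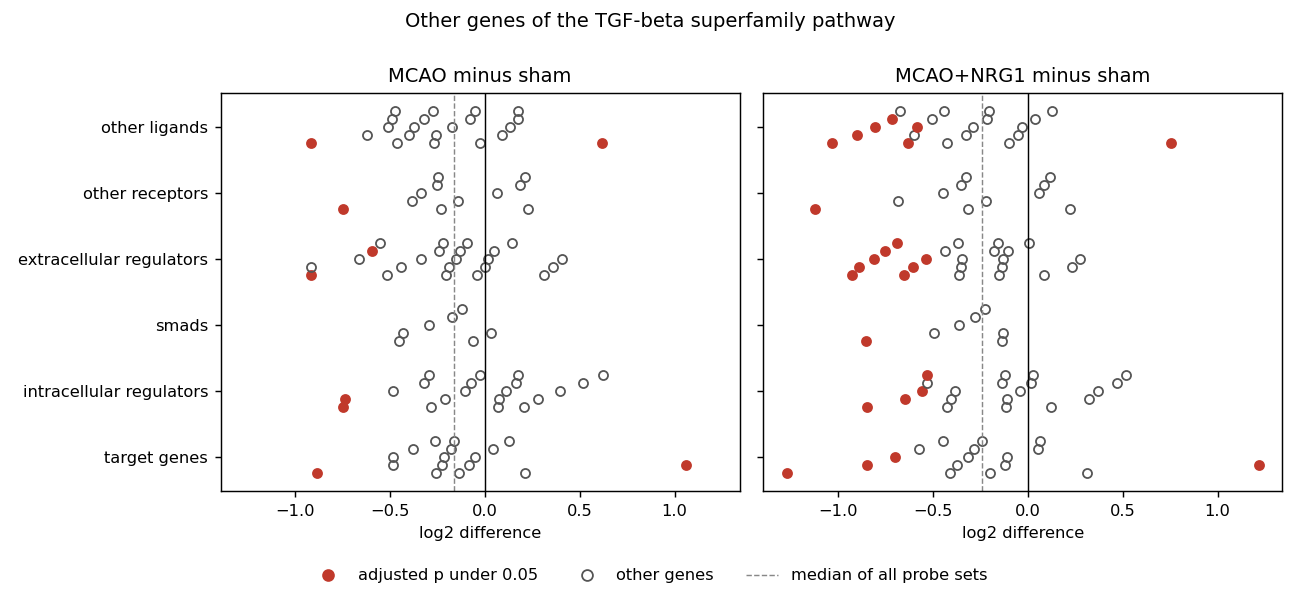
Each point is 1 of the other pathway genes, placed by its log2 difference from sham in MCAO and in MCAO+NRG1 within its list, filled red where the limma adjusted p was under 0.05, with a dashed line at the median of all probe sets. The red points to the right of 0 are Bmp3 at 0.62 and 0.76 and Gadd45b at 1.06 and 1.22, and the other red points lie to the left.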

How the data were processed

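Per array, the deposited values are log2 intensities that the authors computed with RMA in the oligo package. Versions are not given in the sources used here. The values do not tell whether the 10 arrays went through RMA in a single run. Groups came from the sample titles. Probe sets were joined to symbols through the platform annotation, with older names updated through a GRCr8 gene table. The annotation gave 1 symbol to 18511 probe sets, several to 575 and none to 17599. Members and lists were chosen with earlier results of these data known.

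The single-symbol probe sets went into 1 limma fit of the group means (limma 3.58.1, R 4.3.3, default eBayes) with 3 contrasts and a moderated F test. Calls were made at a Benjamini-Hochberg adjusted p under 0.05 over all 18511. The script was tested on simulated arrays with the fitted spread, where 100 probe sets each were changed by 1 and 0.5 log2. It called 54% and 6% of them for MCAO minus sham, and 52% and 1% for MCAO+NRG1 minus MCAO. The simulation changed the MCAO arrays alone, left all other probe sets unchanged and had no array that stood apart. The data differ from it in this, so these rates need not hold for them. The number of arrays limits the precision. All 10 members are named, and of other pathway genes those called in any contrast, up to 6 per list by the F test. For Inhba the 3 most correlated probe sets are named. Gdf9, Fstl4 and Chrdl2 fall outside this rule and were added after their values were seen. Differences between 2 genes within an array were compared by exact permutation over arrays. Promoter windows are RefSeq's.

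Alternatives were median centring, quantile normalization, a test without dim probe sets, a test of every probe set, a single probe set for each gene, trend and robust variance, array weights, a block for the replicate number, fits to 2 groups, leaving out each array and, chosen after seeing the data, median centring without MCAO replicate 3.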

Additional observations from a re-analysis of the deposited data

How the results depend on the processing

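Over 20 alternative settings, neither of the 2 called differences of Inhba changed sign. The number of genes called for MCAO minus sham was 2 after median centring, 2 after quantile normalization, 0 with all probe sets tested, 3 with array weights, and 0 to 2 with single arrays left out. For MCAO+NRG1 minus sham it was 2, 2, 1 and 4 in these settings and 1 to 3 with arrays left out, and for the F test 2, 2, 1 and 4, and 1 to 3. Median centring without MCAO replicate 3 gave 2 in each of these. The genes added were Acvr2a, Tgfb1 and Tgfb3.

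Signs turned in 16 of 30 differences, none of them called. After median centring they were 0.095 for Acvr1, 0.034 for Acvr2a, 0.013 for Smad7 and 0.011 for Tgfb3 in MCAO+NRG1 minus MCAO, 0.011 for Smad7 and 0.011 for Tgfb1 in MCAO minus sham, and 0.11 for Inhbb and 0.024 for Smad7 in MCAO+NRG1 minus sham. After quantile normalization they were 0.069 (Acvr1), 0.027 (Acvr2a), 0.0061 (Smad7) and 0.0045 (Tgfb3) in MCAO+NRG1 minus MCAO and 0.030 (Inhbb) in MCAO+NRG1 minus sham. With array weights they were −0.044 (Fst) and −0.087 (Inhbb) in MCAO minus sham and 0.0099 (Acvr2a), 0.11 (Fst), 0.0032 (Smad7), 0.079 (Tgfb2) and 0.020 (Tgfb3) in MCAO+NRG1 minus MCAO. Median centring without MCAO replicate 3 gave 0.015 (Acvr1), 0.019 (Acvr1c), 0.11 (Fst), 0.083 (Smad7), 0.10 (Tgfb2) and 0.11 (Tgfb3) there, 0.11 (Inhbb) and 0.024 (Smad7) in MCAO+NRG1 minus sham and 0.11 (Tgfb1) in MCAO minus sham.

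With single arrays left out, MCAO minus sham ran from −0.037 to 0.23 for Inhbb, −0.052 to 0.39 for Fst, −0.33 to 0.0038 for Tgfb1 and −0.035 to 0.56 for Tgfb2. MCAO+NRG1 minus MCAO ran from −0.33 to 0.11 for Fst, −0.11 to 0.088 for Acvr1, −0.33 to 0.016 for Acvr1c, −0.49 to 0.10 for Tgfb2, −0.24 to 0.10 for Tgfb3 and −0.24 to 0.080 for Smad7, and MCAO+NRG1 minus sham from −0.017 to 0.11 for Fst and −0.11 to 0.21 for Tgfb2. The cause of these turns was not tested.

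With the replicate block, the counts of called genes were 1, 0 and 1, and over all probe sets the calls fell from 1241 to 232 for MCAO minus sham and from 3199 to 1432 for MCAO+NRG1 minus sham. Deviations of arrays with the same number correlated between −0.188 and 0.224. Arrays of unlike number were not compared in this way, so these values cannot decide whether the numbers pair the arrays. The labels do not say. The other settings that moved these totals over 1.5 times were quantile normalization (742 and 1041), array weights (7120 and 7820) and, for MCAO minus sham, all probe sets tested (307) and the fit of 2 groups (509). The calls among other pathway genes became 5 and 11 after quantile normalization, 40 and 45 with array weights, 0 and 10 with all probe sets tested and 2 and 14 with the replicate block, and 4 for MCAO minus sham in the fit of 2 groups. Averaging several probe sets of a gene could not be applied, since each had 1. The number of arrays limits every difference, and a p that misses the threshold does not show that groups were alike.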
